A study of Mus musculus with 12 samples.

Results

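The ligands and receptors of the vascular endothelial growth factor (VEGF) system were examined in neonatal mouse liver: 9 genes of the 32285 in the deposited matrices. They were taken by name, and comprise the ligands Vegfa, Vegfb, Vegfc and Pgf, the receptor tyrosine kinases Flt1 (VEGFR1), Kdr (VEGFR2) and Flt4 (VEGFR3), and the co-receptors Nrp1 and Nrp2. The set was selected on the Vegfa values of these same livers, which were seen higher in macrophages and lower in hepatocytes, so values of the 9 genes in those 2 cell classes are given as a description, without a test. VEGF-A binds Kdr, which carries most of the signal for endothelial growth and permeability, and Flt1, which binds it tightly and signals weakly. VEGF-B and PlGF (the product of Pgf) bind Flt1, and VEGF-C binds Flt4, the receptor best known from lymphatic vessels and also present on liver sinusoids. Neuropilins bind ligands of the family and present them to the kinases, and they also receive class 3 semaphorins. Vegfa is a well known target of the hypoxia-inducible factors (HIF).

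Single-cell RNA sequencing (10x Genomics, 3′ end counting) had been performed on dissociated whole livers of C57BL/6J pups of both sexes, 6 controls and 6 with phlebotomy-induced anemia. Anemic pups had lost 20 µL of blood per g of body weight from the facial vein on postnatal days 2, 4, 6, 8 and 10, controls received a needle stick without bleeding, and livers of both groups were collected on day 11. Each library was 1 mouse, and all 12 carried the same batch label. By Xist and Y-linked genes, 4 control and 2 anemic mice were female. The libraries held 46252146 to 74545930 unique molecular identifiers (UMIs) each, and 206146 of 207537 barcodes were kept. Of the 201108 distinct barcode sequences among them, 2.46% occurred in 2 or more libraries. Of 79 clusters, 48 were named by raised marker genes and formed 17 cell classes, each called "-like", while 31 clusters (18290 cells, 73.3% of them called doublets) stayed unnamed. The 9 genes were left out of the clustering. The libraries of anemia 2 and anemia 3 stood apart: they held 5050 and 2364 monocyte-like cells, against 279 to 538 in the other 10 mice, and only 26 and 6 stellate-like cells. Results on the 9 genes that rest on them are given with and without both.

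Receptor expression was concentrated in the vessel lining. Levels are UMIs of a gene per 1000000 UMIs of a class in a mouse (CPM), and were compared between classes for 1 gene at a time. Kdr had a mean over 12 mice of 1138 CPM in sinusoidal endothelial-like cells, 585 CPM in large-vessel endothelial-like cells and 115 CPM in mesothelial-like cells. The ranges over mice did not overlap between the first 2 classes (840.7 to 1319 against 445.0 to 687 CPM), nor between the second and the third. In macrophage-, monocyte-, dendritic-, neutrophil-, basophil-, NK-, T-, B-, pre-B- and erythroid-like cells the Kdr mean lay at a similar low level, 3.3 to 8.1 CPM. Flt4 followed the same order, with 470 CPM in sinusoidal and 189 CPM in large-vessel endothelial-like cells, which did not overlap, and 27.1 CPM in mesothelial-like cells. The large-vessel class was the single cluster 20, led by Ccl21a, Mecom, Thsd7a and Nts, with Vwf and Gja5 also among its top genes. Whether it mixes lymphatic with blood vessel cells was not tested, so its levels, also of Vegfc, are not those of 1 kind of vessel. Flt1 was highest in the same pair of classes, 2425 and 1551 CPM, but their ranges over mice overlapped. The level of Flt1 in large-vessel cells stood clear of the next class, stellate-like cells at 79.1 CPM.

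The neuropilins were less restricted to endothelium. Nrp1 had means of 631 CPM in sinusoidal and 554 CPM in large-vessel endothelial-like cells, whose ranges overlapped, then 303 CPM in fibroblast-like and 125 CPM in stellate-like cells. It was also present in macrophage-like (80.0 CPM), dendritic-like (75.9 CPM) and monocyte-like cells (66.3 CPM), and the ranges of these last 3 overlapped. Nrp2 had means of 508 CPM in sinusoidal, 374 CPM in large-vessel endothelial-like and 115 CPM in mesothelial-like cells. The ranges of the first 2 overlapped, and the third stood clear of the next class, monocyte-like cells at 39.3 CPM. Thus Flt1, Kdr, Flt4, Nrp1 and Nrp2 each had their highest mean in sinusoidal endothelial-like cells, a class in which all 8 fixed markers were raised in every cluster, led by Stab2 (4008 CPM in controls) and Dnase1l3 (2094 CPM).

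**Figure D1:**
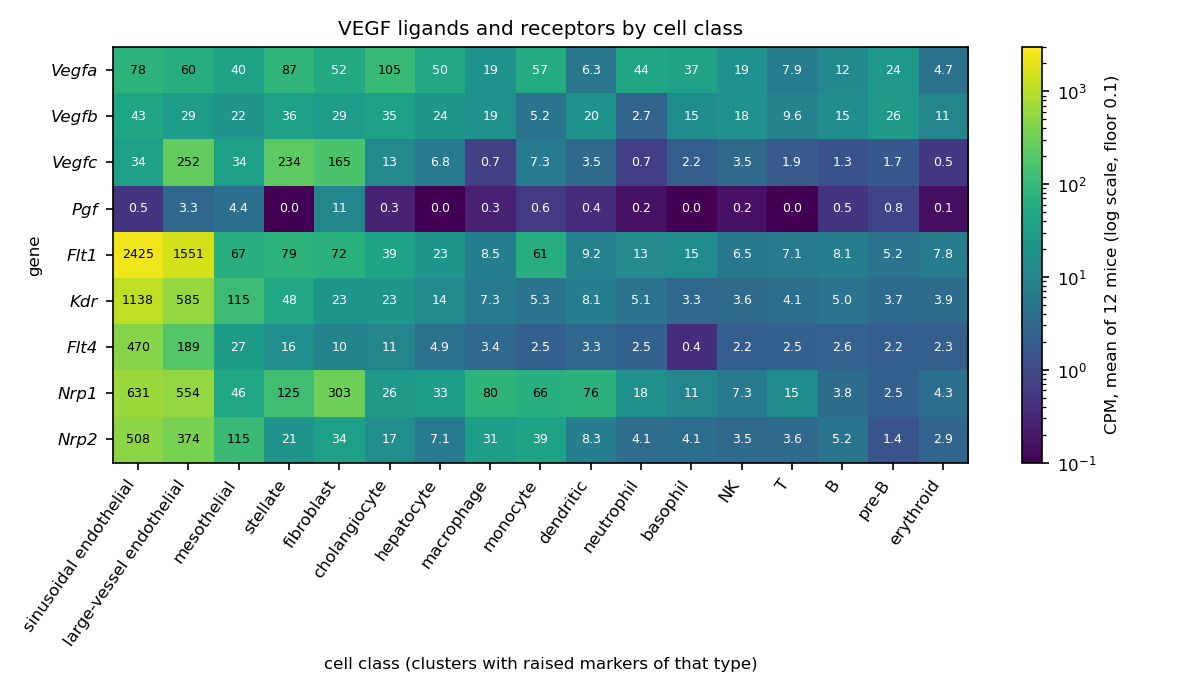
Mean level of each of the 9 genes (rows) in each of 17 cell classes (columns), in CPM averaged over 12 mice, colored on a log scale with a floor of 0.1 CPM. The 5 receptor and co-receptor genes have their highest means in the sinusoidal endothelial-like column (2425, 1138, 470, 631 and 508 CPM), whereas Vegfc is highest in large-vessel endothelial-like, stellate-like and fibroblast-like cells (252, 234 and 165 CPM).

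The ligands had their highest levels in different cells. Vegfc had means of 252 CPM in large-vessel endothelial-like, 234 CPM in stellate-like and 165 CPM in fibroblast-like cells. These 3 classes overlapped one another and stood clear of the next, mesothelial-like cells at 34.3 CPM. Vegfa was spread widely, with the highest mean in cholangiocyte-like cells (105 CPM), followed by stellate-like (87.2 CPM), sinusoidal endothelial-like (78.1 CPM) and large-vessel endothelial-like cells (60.4 CPM), and neighbours in this order overlapped. This order pools both groups. Stellate-like cells had 48.5 CPM of Vegfa in controls, below 6 other classes, and 126 CPM in anemia, above the 92.8 CPM of cholangiocyte-like cells. Called doublets, which were kept, made up 67.4% of cholangiocyte-like, 81.5% of mesothelial-like, 46.8% of fibroblast-like, 35.9% of stellate-like and 25.6% of large-vessel endothelial-like cells, against 5.80% of sinusoidal endothelial-like cells, and their part in these levels was not tested. Vegfb, whose product binds Flt1 and neuropilin 1, ranged from 2.7 CPM in neutrophil-like to 43.0 CPM in sinusoidal endothelial-like cells. Pgf reached 10 CPM in fibroblast-like cells alone (11.4 CPM, range 3.8 to 17.5), on 158 UMIs in all 12 mice. In the other classes its mean was at most 4.37 CPM.

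Genes with the most similar pattern across the 17 classes were found by Pearson correlation of class means on a log2(CPM + 1) scale among 14221 genes. Such correlations share libraries and class definitions and are descriptive. Kdr was most like Adgrf5 (r = 0.993), Esam (0.989) and Flt4 (0.988), and Flt4 most like Kdr, Gpr182 (0.983) and Adgrf5 (0.982). Flt1 was most like Pcdh17 (0.972), Ptprb (0.957) and Tex29 (0.956). Vegfc was most like Bmper (0.956), Cacng7 (0.952) and Myoz3 (0.946), and Pgf most like Gxylt2 (0.963), Lrrn2 (0.947) and Arsj (0.937). Nrp1 was most like Cmtm3 (0.925), Pros1 (0.923) and Nav1 (0.917), and Nrp2 most like 1700112J16Rik (0.949), Dab2 (0.943) and Stab1 (0.942). The nearest neighbours of Vegfb were Dele1 (0.902), Med9 (0.899) and Tbc1d7 (0.898). Vegfa had the lowest best match of the 9 genes, with Mapk3 (0.867), Cpd (0.859) and Rbpms (0.849).

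To show the regulatory sequence of the pair of ligands that changed, the 250 bases before the annotated start of Vegfa and of Vegfc are printed, from RefSeq on GRCm38.p6, 5′ to 3′ on the strand of the gene. Vegfa lies at chr17:46016993-46032369 on the minus strand and Vegfc at chr8:54077606-54187096 on the plus strand (GENCODE M21, GRCm38). Capitals mark matches, on either strand, to GGGCGG (the GC box bound by Sp family factors) and to ACGTG or GCGTG (the core of the hypoxia response element).
Vegfa, chr17:46032378-46032627, minus strand: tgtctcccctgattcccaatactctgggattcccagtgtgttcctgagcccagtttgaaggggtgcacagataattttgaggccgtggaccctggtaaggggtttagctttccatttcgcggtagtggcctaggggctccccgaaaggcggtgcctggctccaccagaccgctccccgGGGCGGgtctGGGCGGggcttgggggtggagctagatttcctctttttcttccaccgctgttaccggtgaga
Vegfc, chr8:54077282-54077531, plus strand: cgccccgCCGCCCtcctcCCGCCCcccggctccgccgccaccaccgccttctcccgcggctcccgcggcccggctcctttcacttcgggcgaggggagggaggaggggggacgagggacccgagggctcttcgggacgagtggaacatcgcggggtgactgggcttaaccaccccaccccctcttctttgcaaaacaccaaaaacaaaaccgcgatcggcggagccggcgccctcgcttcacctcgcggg
Each of these windows held 2 GC boxes and neither ACGTG nor GCGTG. A second Vegfa start in the table, with the window chr17:46025164-46025413, held ACGTG and GCGTG once each, at chr17:46025370-46025374 and chr17:46025377-46025381, both inside a coding exon of Vegfa. Of the 11 windows of the 9 genes, 7 held either core and 10 a GC box. Of all 32851 windows of this length, 38.6% held either core and 32.7% a GC box. Absence of the letters from 250 bases says nothing of more distant elements.

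In macrophage-like cells, Vegfa was low in controls and higher in every anemic mouse. Control mice had 2.49 CPM at the lowest, 3.82 at the median and 5.15 at the highest, and anemic mice had 20.4, 34.4 and 49.6 CPM. The means were 3.82 ± 1.06 and 34.9 ± 11.9 CPM (SD, n = 6 each), on 208 and 1554 UMIs, and the fitted log2 fold change was 3.20. The groups did not overlap. This class held the complement genes C1qa, C1qb and C1qc and the Kupffer cell marker Clec4f. Clec4f lay between 2722 and 3363 CPM in 4 of the anemic mice, but at 286 CPM in anemia 2 and 932 CPM in anemia 3. Vsig4 was also low in these 2 mice, 349 and 644 CPM, and Marco high, 6433 and 5839 CPM. Vegfa was 25.8 CPM in anemia 2 and 20.4 CPM in anemia 3, the 2 lowest anemic values, and 27.2 to 49.6 CPM in the other 4. Without these 2 mice, the difference of the means was 36.95 CPM, against 31.1 CPM with them.

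The higher Vegfa of macrophage-like cells, on which the genes were selected, is described here inside clusters 5, 25 and 9 as well. In the largest, cluster 5 (9635 cells, led by Clec4f, Cd209f and Vsig4), Vegfa went from 3.20 ± 1.04 CPM in 6 controls to 38.3 ± 15.3 CPM in the 5 anemic mice with at least 20 cells. In cluster 25 (2669 cells, led by Marco) the means were 8.62 ± 4.88 and 47.6 ± 23.4 CPM, and in cluster 9, whose cells had a median of 823 UMIs, 7.17 ± 3.47 and 15.8 ± 7.83 CPM. Cluster 62 (359 cells), the remaining cluster of the class, held 5.41% of the class UMIs in controls and 3.34% in anemia, and its Vegfa is not given here. With the weight of each cluster held at its control share of UMIs, the class means were 3.87 ± 0.953 and 32.8 ± 15.3 CPM, and all 6 anemic mice still lay above every control. Macrophage-like cells held 1.65% of all Vegfa UMIs of a control liver suspension and 9.15% in anemia, although they were 10.9% and 7.66% of the cells.

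The other genes of the family showed no such separation in macrophage-like cells. Nrp1 was 78.7 ± 6.11 CPM in controls and 81.4 ± 16.0 CPM in anemia, Nrp2 28.7 ± 8.37 and 33.8 ± 10.3 CPM, and Vegfb 20.4 ± 3.22 and 18.5 ± 5.06 CPM. RNA of other cell types moved in this class too: the summed 7 hepatocyte markers ranged from 1375 to 2234 CPM in controls and from 232 to 1225 CPM in anemia, and the 7 erythroid markers from 711 to 3259 and from 2492 to 7930 CPM. The part of such RNA in the Vegfa values was not tested. In the cells of each mouse with the lower share of hepatocyte RNA, the difference of the Vegfa means was 32.5 CPM, against 31.1 CPM in all. That split ranks cells by hepatocyte markers alone, which were lower in anemia, so it says nothing of RNA from other cell types.

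Hepatocyte-like cells showed the opposite direction for Vegfa. The 6 controls had 59.9 CPM at the lowest, 62.4 at the median and 71.6 at the highest. The 6 anemic mice had 26.1, 36.5 and 38.4 CPM, all below every control. The means were 64.8 ± 5.06 and 34.3 ± 5.10 CPM, with a fitted log2 fold change of -0.72. With cells of at most 10% mitochondrial UMIs, the difference of the means was -11.1 CPM in place of -30.5 CPM. Of the 7 markers that named the class, Alb (40894 and 24318 CPM) and Apoa1 (16892 and 10520 CPM) were below every control in all 6 anemic mice. Ttr (29594 and 23346 CPM) and Ahsg (28067 and 22841 CPM) were so in 4 mice. Fgb (2703 and 2727 CPM) and Serpina1c (7069 and 7174 CPM) had close means, while Serpina1e (1141 and 1968 CPM) was above every control in 4. Their part in the Vegfa level was not tested. In this class 47.1% of all genes tested were called.

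This lower level went with a different mix of hepatocyte-like clusters. Cluster 28, the deepest (median 4208 UMIs, led by Apob and Cps1), had a median of 15.7% mitochondrial UMIs, against 0.871 to 2.62% in the other 5 clusters. It had the highest Vegfa, 104.8 ± 5.75 CPM in controls and 94.4 ± 13.7 CPM in anemia. This cluster supplied 50.0% of the UMIs of the class in controls and 18.9% in anemia. Cluster 15, with a median of 771 UMIs and 19.9 ± 12.0 CPM of Vegfa in controls and 13.5 ± 9.05 CPM in anemia, went from 5.78% to 15.9%. Cluster 45, with 14.8 ± 6.37 CPM in 5 controls and 16.7 ± 10.9 CPM in anemia, went from 3.21% to 8.76%. The groups overlapped inside each of the 6 clusters. The means were 24.5 ± 6.55 and 28.5 ± 8.62 CPM in cluster 19, 20.2 ± 7.97 and 17.1 ± 5.85 CPM in cluster 29, and 39.3 ± 24.5 and 20.3 ± 9.00 CPM in cluster 17. With the control mix held fixed, the class means were 64.8 ± 1.98 and 58.6 ± 6.76 CPM, a difference of -6.27 CPM in place of -30.5 CPM, and 5 of 6 anemic mice still lay below every control. The fixed mix was chosen after the values were seen. The clusters were built from expression, so a change inside hepatocytes that moves cells between clusters, and a loss of 1 kind of hepatocyte barcode, cannot be told apart.

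**Figure D2:**
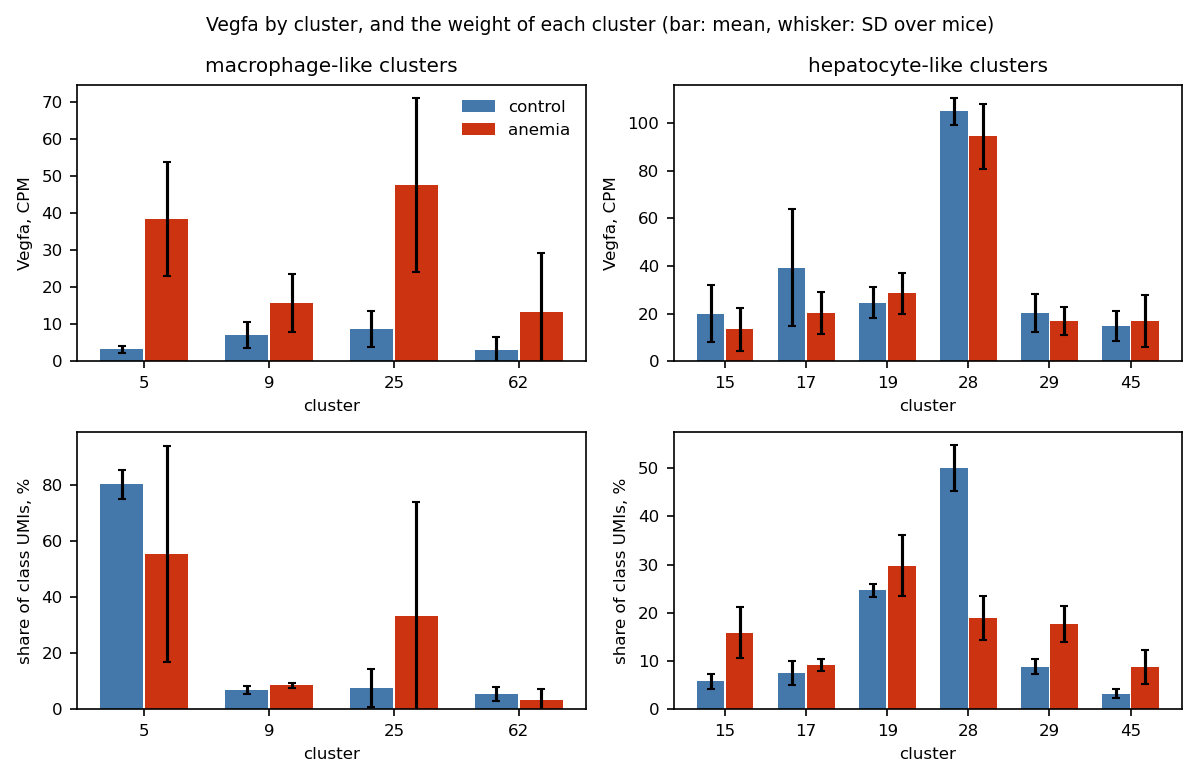
Vegfa level in CPM (upper row) and share of the UMIs of the class in percent (lower row) for each macrophage-like and hepatocyte-like cluster, as means with SD over mice, clipped at 0, for control and anemic mice with at least 20 cells (upper row) or all 12 mice (lower row). Macrophage-like clusters 5, 9 and 25 have higher Vegfa in anemia, whereas hepatocyte-like cluster 28 keeps a similar Vegfa level (104.8 and 94.4 CPM) while its share of the UMIs goes from 50.0% to 18.9%.

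The receptors and co-receptors were also lower in hepatocyte-like cells. Nrp1 was 46.2 ± 5.72 CPM in controls and 19.1 ± 2.55 CPM in anemia, and Kdr 19.3 ± 3.38 and 8.79 ± 3.60 CPM, each without overlap. In this class 47.1% of all tested genes were called, and the share of all genes without overlap is not given. With the mix held fixed, Nrp1 was 46.1 ± 4.09 and 33.1 ± 7.29 CPM and Kdr 19.7 ± 3.55 and 11.4 ± 5.2 CPM. The summed 8 sinusoidal endothelial markers moved with them, at 115 to 178 CPM in controls and 44.6 to 113 CPM in anemia, and their part in these values was not tested. Vegfb was higher, 19.5 ± 3.59 and 27.7 ± 3.35 CPM, but not with the mix held fixed (19.7 ± 4.23 and 20.1 ± 2.77 CPM).

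Outside these 2 classes, 108 pairs of a gene and a class passed the filter of a mean of 5 UMIs per mouse in 15 classes. By edgeR's quasi-likelihood test with Benjamini-Hochberg adjustment over all genes of a class, 4 pairs were called at an adjusted p under 0.05, 3 higher and 1 lower in anemia. Of all gene and class pairs in these classes, 2.75% were called. The calls were Vegfa in stellate-like cells and Vegfa, Vegfc and Flt4 in sinusoidal endothelial-like cells. The other 104 fitted log2 fold changes ran from -1.62 to 0.71.

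Stellate-like cells, the vitamin A storing pericytes of the sinusoid, had the largest called change. Vegfa in controls was 33.6 CPM at the lowest, 47.1 at the median and 65.9 at the highest, and in anemia 95.8, 132 and 144 CPM. Every anemic mouse lay above every control. The fitted log2 fold change was 1.43 ± 0.18 (SE; adjusted p = 1.32e-05 by edgeR), in a class where 2.53% of 8870 tested genes were called, 1.74% higher and 0.789% lower. The values rest on 188 UMIs in controls and 187 in anemia, of which anemia 3 had 3 and anemia 2 had 11. Without these mice the change was 1.47 (adjusted p = 2.22e-05). With coarser clusters (Leiden resolution 1 in place of 2) it was 0.90 (adjusted p = 7.34e-05). The stellate-like class was then another set of cells, 2977 with 63.4% called doublets, in place of 1514 with 35.9%.

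No other gene of the family was called in stellate-like cells by edgeR as described or by DESeq2. Vegfc, which had a high level in these cells, was 276 ± 33.7 CPM in controls and 193 ± 34.1 CPM in anemia (log2 fold change -0.37 ± 0.16, adjusted p = 0.308). Flt4, Kdr and Flt1 were fitted at -1.62, -0.92 and -0.83 (adjusted p = 0.0765, 0.104 and 0.179). These 3 receptor values depended on the processing. All 3 passed the threshold with no filter on low counts (adjusted p = 0.00871, 0.00948 and 0.00290) and with the replicate number as a block, and Flt4 also without control 2 or with cells of at most 10% mitochondrial UMIs. With called doublets left out they were -1.16, -0.31 and -0.25, none of them called. With the coarser clusters, and their larger share of called doublets, they were -0.12, -0.02 and 0.38, also not called. The 8 sinusoidal endothelial markers moved with these receptors, from 338 to 894 CPM in controls and from 141 to 387 CPM in anemia, and their part was not tested. The 8 stellate markers were present in every mouse. Lrat, which stores retinol as esters, was 756 ± 80.8 CPM in controls and 466 ± 151 CPM in anemia, below every control in all 6 mice. Reln (3736 and 3028 CPM), Colec11 (2707 and 2111 CPM) and Ecm1 (4755 and 3744 CPM) were so in 4 mice. Rgs5, a pericyte gene, had means of 629 and 1117 CPM and was above every control in 4. Dcn (6544 and 6321 CPM), Hand2 (143 and 132 CPM) and Hgf (835 and 768 CPM) had closer means, and Hgf was at 93.7 CPM in 1 anemic mouse. The part of these markers was not tested. Erythroid markers ranged from 382 to 8698 CPM in controls and from 1354 to 51204 CPM in anemia.

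**Figure D3:**
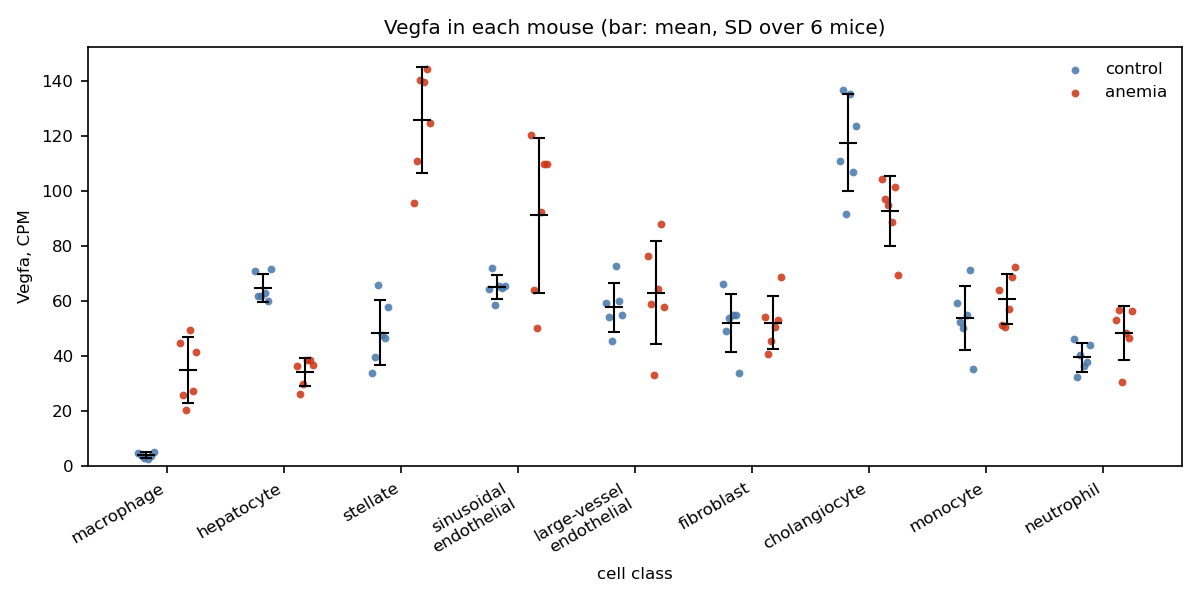
Vegfa in CPM in each of 12 mice (points) in 9 cell classes, control and anemia side by side, with the mean and SD over 6 mice. The groups are apart in macrophage-like (means 3.82 and 34.9 CPM), hepatocyte-like (64.8 and 34.3 CPM) and stellate-like cells (48.5 and 126 CPM), and overlap in the other 6 classes.

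In sinusoidal endothelial-like cells (21706 cells), 3 of 8 tested genes of the family were called, 2 higher and 1 lower, in a class where 18.8% of 16011 genes were called, 8.14% higher and 10.7% lower. Vegfa in controls was 58.7 CPM at the lowest, 65.1 at the median and 72.0 at the highest, and in anemia 50.0, 101 and 121 CPM. It was above every control in 4 of 6 anemic mice, while anemia 2 (64.1 CPM) and anemia 3 (50.0 CPM) were not higher. The log2 fold change was 0.61 ± 0.17 (adjusted p = 0.0197, edgeR). Without these 2 mice it was 0.84 (adjusted p = 9.33e-06), and inside the largest cluster, cluster 2, it was 0.56 (adjusted p = 0.0390). The difference between the stellate-like and sinusoidal endothelial-like changes in the same mice rested partly on anemia 2 and anemia 3. The log2 ratio of the 2 levels went from -0.45 ± 0.41 to 0.51 ± 0.61 (exact permutation test over mice, 2-sided, p = 0.00866, adjusted over 3 such comparisons 0.0130), and lay above every control in 5 of 6 anemic mice. Without these 2 mice the change of this ratio was 0.66 in place of 0.96 (exact permutation p = 0.0381, adjusted 0.0571), which no longer passed the threshold.

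Vegfc, the main ligand of Flt4, rose in sinusoidal endothelial-like cells of all 6 anemic mice. Controls ranged from 17.8 to 24.8 CPM with a median of 21.2, and anemic mice from 29.1 to 108 CPM with a median of 35.5. The log2 fold change was 1.24 ± 0.28 (adjusted p = 0.00673, edgeR). The value of 108 CPM came from anemia 5, and without it the change was 0.80 (adjusted p = 0.000382). By cluster, Vegfc went from 24.1 ± 3.89 to 50.3 ± 34.6 CPM in cluster 2 and from 17.7 ± 6.18 to 41.6 ± 21.4 CPM in the cycling cluster 33, whereas cluster 11, led by Dnase1l3 and Clec4g and 18.1% anemic, had 17 ± 3.28 and 20.7 ± 15.3 CPM. Cluster 2 went from 58.6% to 75.2% of the class UMIs and cluster 11 from 22.1% to 6.05%. With the control mix held fixed, Vegfc was 21.2 ± 2.69 and 41.2 ± 26.4 CPM, above every control in all 6 anemic mice. Vegfa was then 65.3 ± 2.74 and 88.5 ± 27.9 CPM, above every control in 4. Flt4 was 527 ± 10.9 and 412 ± 49.2 CPM, below every control in 6. Flt4 was not alone in this. Kdr was 1234 ± 35.9 and 1014 ± 110 CPM and Nrp2 566 ± 29.5 and 443 ± 42.4 CPM, each also below every control in 6. Nrp1 was 698 ± 38.4 and 566 ± 82.8 CPM, below every control in 5. Flt1 was 2417 ± 179 and 2316 ± 704 CPM, below every control in 2 and above in 3. These levels carry no TMM factors.

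Vegfc in large-vessel endothelial-like cells, where it is higher, was 211 ± 53.7 CPM in controls and 293 ± 84.5 CPM in anemia (log2 fold change 0.56 ± 0.19, adjusted p = 0.166), with 3 of 6 anemic mice above every control. In this class 2.06% of 12548 genes were called and none of the 9 tested genes of the family was, by edgeR or by DESeq2, with 1 of them at an unadjusted p under 0.05 by edgeR. Vegfc did pass in 3 alternatives, the joint voom model of all classes (0.56, adjusted p = 0.000267), the replicate block, and with called doublets left out (0.84, adjusted p = 0.0425). The change in sinusoidal minus that in large-vessel cells was 0.45 on the log2 scale (exact permutation p = 0.0584), which does not separate the 2 classes. Against stellate-like cells, where Vegfc was not higher, the difference was 1.45 (exact permutation p = 0.00216, adjusted 0.00649), above every control in 6 of 6 anemic mice. Without anemia 2 and anemia 3 these 2 differences were 0.43 (exact permutation p = 0.162) and 1.497 (adjusted p = 0.0286, exact permutation). These 3 comparisons of classes were chosen after the values were seen.

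Flt4 was the only receptor called, and its change was small. Controls had 512 CPM at the lowest, 523 at the median and 550.1 at the highest. Anemic mice had 350.5, 404 and 489 CPM, each below every control. The log2 fold change was -0.23 ± 0.08 (adjusted p = 0.0468, edgeR). Leaving out any of 10 of the 12 mice in turn ended the call (adjusted p up to 0.111), as did leaving out anemia 2 and anemia 3 together (-0.16, adjusted p = 0.146). Of the other alternatives, no filter on low counts and the replicate block (adjusted p = 0.0719 in each), called doublets left out (0.0563) and the coarser clusters (0.0504) also ended it, and 8 of 13 in all kept it. Inside cluster 2 it was -0.25 (adjusted p = 0.0409).

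The remaining receptors of sinusoidal endothelial-like cells were not called, and all but Flt1 were fitted below 0. Kdr was 1234 ± 47.8 CPM in controls and 1041 ± 111 CPM in anemia (-0.13 ± 0.08, adjusted p = 0.260). Nrp2 was fitted at -0.21 ± 0.08 (adjusted p = 0.0850) and Nrp1 at -0.19 ± 0.08 (adjusted p = 0.138). With library totals in place of trimmed mean (TMM) factors, the median of all genes in this class moved from 0.01 to -0.10, and Kdr, Nrp1 and Nrp2 were then called lower too (-0.23, -0.29 and -0.32). Of 13 alternatives, 12 left Kdr uncalled and 11 each left Nrp1 and Nrp2 uncalled. This scaling was therefore not the only setting that called Nrp1 and Nrp2. Flt1 was fitted at 0.13 ± 0.16 (adjusted p = 0.615). It fell below every control in anemia 2 and anemia 3 (1554 and 1572 CPM, against 2073 to 2652 CPM in controls), exceeded every control in 3 mice, and without those 2 mice was called higher (0.36, adjusted p = 0.0147). Of 13 alternatives, 11 left Flt1 uncalled, so leaving out those 2 mice was not the only setting that called it. Vegfb did not pass the test (0.11 ± 0.09, adjusted p = 0.401).

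**Figure D4:**
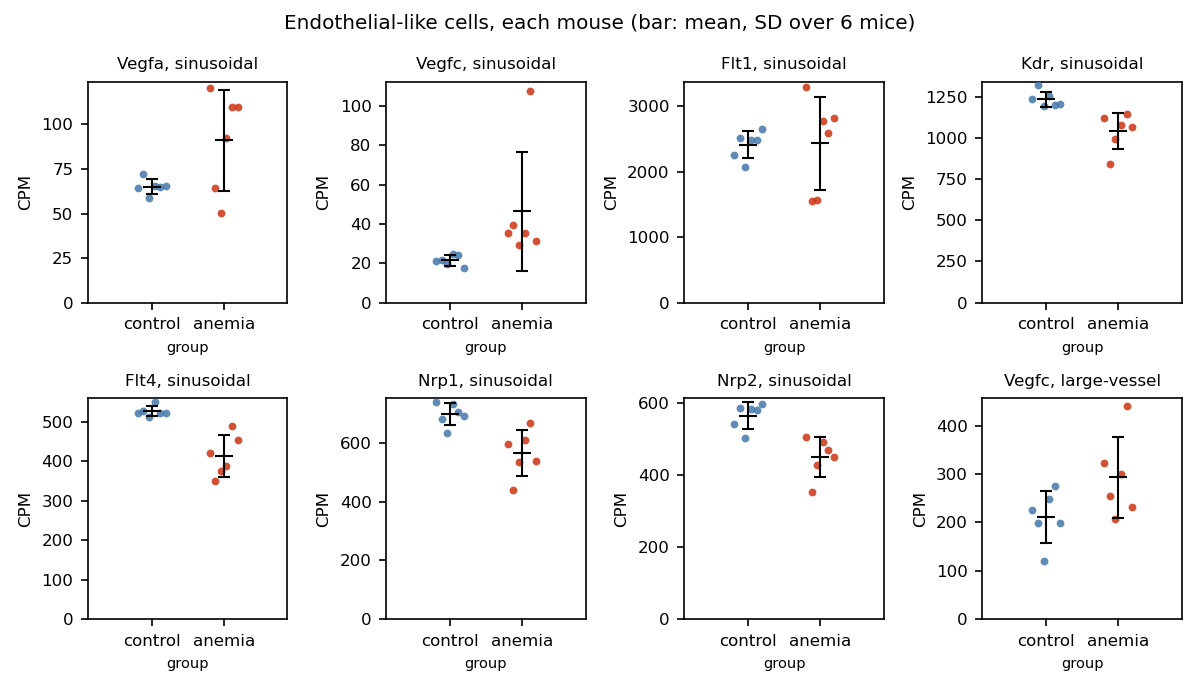
Level in CPM of each named gene in each mouse (points), with the mean and SD over 6 mice, in sinusoidal endothelial-like cells (first 7 panels) and for Vegfc in large-vessel endothelial-like cells (last panel). Every anemic mouse lies above every control for Vegfc (29.1 to 108 against 17.8 to 24.8 CPM) and below every control for Flt4 and Kdr in the sinusoidal class. These CPM values carry no TMM factors, and with TMM factors Kdr was not called (log2 fold change -0.13). The share of all genes of the class without overlap is not given.

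RNA of other cells also differed in sinusoidal endothelial-like cells. The 7 hepatocyte markers summed to 1597 to 2660 CPM in controls and 270 to 1372 CPM in anemia, and the 7 erythroid markers to 889 to 2492 and 2276 to 5731 CPM. The 9 macrophage markers summed to 175 to 244 CPM in controls and 170 to 441 CPM in anemia, and the 8 stellate markers to 191 to 215 and 105 to 270 CPM. Their part in the Vegfa and Vegfc values was not tested. In the cells of each mouse with the lower share of hepatocyte RNA, Vegfa and Vegfc were still called (log2 fold changes 0.59 and 1.12). This split ranks cells by hepatocyte markers alone, which were lower in anemia, so it says nothing of RNA from other cell types. The class itself made up 13.4 ± 1.53% of control and 8.10 ± 3.30% of anemic cells.

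**Figure D5:**
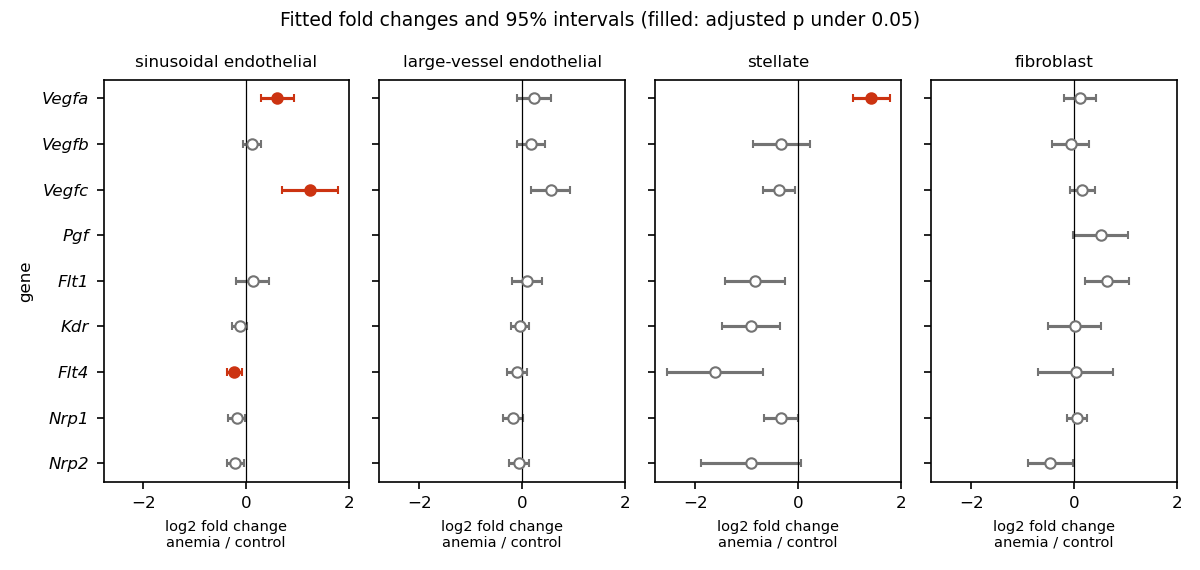
Fitted log2 fold change, anemia over control, of each named gene with its 95% interval by normal approximation in 4 cell classes, where filled points have an adjusted p under 0.05. Vegfa in stellate-like cells (1.43) and Vegfa, Vegfc and Flt4 in sinusoidal endothelial-like cells (0.61, 1.24 and -0.23) are filled, and no point in large-vessel endothelial-like or fibroblast-like cells is.

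In the remaining 12 classes no gene of the family was called by edgeR or by DESeq2, where 0.819% of all gene and class pairs there were called by edgeR. An unadjusted p under 0.05 was reached by 10 of 83 pairs of the family (12.0%) and by 12.1% of all pairs. Among the 83, Flt1 in monocyte-like cells was lower in 5 of 6 anemic mice than in any control, 74.5 ± 7.72 and 48.4 ± 20.1 CPM (-0.63 ± 0.21, adjusted p = 0.207). It passed the threshold without anemia 1 (-0.83, adjusted p = 0.0442) and with the replicate block, and was -0.34 without anemia 2 and anemia 3. Flt1 in fibroblast-like cells was fitted at 0.64 ± 0.22 (adjusted p = 0.341), and Pgf there at 0.52 ± 0.28 (adjusted p = 0.669), with 9.72 ± 4.17 and 13.05 ± 2.65 CPM. Vegfa in cholangiocyte-like cells, its highest level in controls, was 118 ± 17.7 and 92.8 ± 12.6 CPM (-0.35 ± 0.14, adjusted p = 0.472). Vegfa in monocyte-like cells, 53.9 ± 11.7 and 60.7 ± 9.07 CPM, had an interval for the log2 fold change of -0.07 to 0.50.

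The sum over all cells of a mouse includes the macrophage-like and hepatocyte-like UMIs whose Vegfa chose the genes, so its Vegfa is given as a description, with no p. It was 35.9 ± 1.961 CPM in controls and 44.9 ± 9.89 CPM in anemia, above every control in 5 of 6 anemic mice and lowest of all in anemia 3 (27.0 CPM). The fitted log2 fold change was 0.55, and 0.31 without TMM factors, which here moved the median of all genes from 0.03 to -0.21. In this sum 6.92% of 21191 genes were called, 3.17% higher and 3.75% lower. Flt4 was fitted at -0.53 ± 0.22 (adjusted p = 0.164). In such a sum, fewer cells of a type and less RNA per cell cannot be told apart. Sinusoidal endothelial-like cells held 33.2 ± 4.89% of Vegfa UMIs in controls and 28.5 ± 12.9% in anemia, the largest share of a named class in 10 of 12 mice. In anemia 2 and anemia 3 monocyte-like cells held more, 35.3% and 23.0%, against 12.0% and 12.1%. Without these 2 mice the sinusoidal share in anemia was 36.7 ± 2.74%. The share of hepatocyte-like cells was 8.58 ± 1.86% and 3.88 ± 1.93%. For Vegfc, the share of large-vessel endothelial-like cells was 21.9 ± 2.72% in controls and 33.7 ± 4.84% in anemia, higher in all 6 mice, and that of stellate-like cells 11.5 ± 3.50% and 2.57 ± 1.52%, lower in all 6. Over all 12 mice Vegfc had 5596 UMIs in large-vessel endothelial-like, 3807 in sinusoidal endothelial-like, 2104 in fibroblast-like and 1344 in stellate-like cells.

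Genes around the pathway were counted from fixed lists, without the 9 genes, in the classes that carry the receptors. In sinusoidal endothelial-like cells, where 18.8% of all genes were called and the median log2 fold change was 0.01, none of 21 tested genes of VEGF signal transduction (such as Plcg1 and Src) was called by edgeR, and 5 had an unadjusted p under 0.05. Of 12 VEGF-responsive and tip cell genes, 5 rose and none fell, with a median log2 fold change of 0.35. Without anemia 2 and anemia 3, 4 of them rose. Rcan1, a calcineurin regulator induced by VEGF, rose by 0.41 ± 0.07 (adjusted p = 0.00185). Esm1 (endocan), a tip cell marker, ranged from 0.50 to 1.17 CPM in controls and from 1.81 to 93.9 CPM in anemia (4.87 ± 1.05, adjusted p = 0.00528). Apln, the ligand of the apelin receptor, went from 3.75 ± 1.06 to 21.1 ± 24.9 CPM (2.62 ± 0.55, adjusted p = 0.00445) and Igfbp3 from 4.04 ± 0.955 to 17.5 ± 23.2 CPM (2.27 ± 0.57, adjusted p = 0.0132).

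The mouse with the highest Vegfc, anemia 5, also had the highest Esm1 (93.9 CPM), Apln (71.2 CPM) and Igfbp3 (64.5 CPM) in this class. Without it the log2 fold changes were 2.78, 1.71 and 1.18 (adjusted p = 0.00134, 0.00160 and 0.00625), so the size of each rested in part on this mouse while the calls did not.

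Other lists of sinusoidal endothelial-like cells also held called genes, against 18.8% of all genes called there. Of 9 tested neuropilin partners, 1 (11.1%) rose: Sema3a, a class 3 semaphorin that binds Nrp1, had 2.51 ± 0.533 CPM in controls and 28.1 ± 7.66 CPM in anemia, higher in 6 of 6 mice (log2 fold change 3.61 ± 0.20, adjusted p = 1.32e-07). Of 10 matrix proteins that bind or release VEGF, 5 rose and 1 fell. Among them Ccn2 (connective tissue growth factor, which binds VEGF-A) rose by 4.62 ± 0.75 (adjusted p = 0.000856), with 142 CPM in anemia 5 and a change of 3.85 without that mouse, and Sparc rose from 1657 ± 102 to 2358 ± 332 CPM (0.63 ± 0.11, adjusted p = 0.000988). Gpc1, a heparan sulfate proteoglycan, fell, with 5.03 ± 0.618 CPM in controls and 1.62 ± 0.758 CPM in anemia (-1.47 ± 0.22, adjusted p = 0.000551). Of 11 genes of other endothelial growth factor axes 3 (27.3%) were called: the Notch ligand Jag1 rose (0.78 ± 0.12, adjusted p = 0.000717), and Notch1 and Ephb4 fell (-0.31 ± 0.08 and -0.29 ± 0.09). The call of Ephb4 was lost without any of 9 of the 12 mice. Without anemia 2 and anemia 3 together, 1 gene of this list rose and 1 fell.

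Genes of oxygen sensing were counted in the same way. In sinusoidal endothelial-like cells 10 of 14 hypoxia targets rose and none fell, with a median log2 fold change of 0.70. Pgk1 (glycolysis) rose by 1.32 ± 0.09 and Slc2a1 (the glucose transporter Glut1) by 1.68 ± 0.13, while Adm (adrenomedullin) went from 24.8 ± 3.49 to 71.4 ± 16.4 CPM. Without anemia 2 and anemia 3, 13 of them were called. Of the 7 genes of the HIF axis, Hif1a and Egln1 rose (0.44 ± 0.09 and 0.40 ± 0.11). Egln1, a prolyl hydroxylase that marks HIF for degradation, lost its call without control 5 or without anemia 1. In large-vessel endothelial-like cells 7 of 13 tested hypoxia targets rose against 2.06% of all genes called, with a median of 0.65. The same class had 1 of 12 VEGF-responsive genes called (Rcan1, 0.49 ± 0.12, adjusted p = 0.0473, lost without any of 10 of the 12 mice), 2 of 8 matrix proteins (Ccn2 and Sparc, the second lost without any of 10 mice), 1 of 11 other growth factor axis genes (Jag1), and none of 20 signal transduction genes, 8 neuropilin partners or 7 HIF axis genes by edgeR, of which 2, 3 and 3 had an unadjusted p under 0.05.

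In stellate-like cells, where 2.53% of all genes were called, 6 of 13 tested hypoxia targets rose and 1 fell, with a median of 1.01 beside -0.02 for all genes. The number that rose was 3 without control 1, control 4, control 6, anemia 4 or anemia 5, and up to 7 with another mouse left out. Aldoa, a glycolytic enzyme, went from 425 ± 63.3 to 906 ± 280.0 CPM (1.04 ± 0.16, adjusted p = 0.000105) and Pgk1 rose by 1.39 ± 0.19. Of the other lists, Igfbp3 (1241 ± 162 to 553 ± 152 CPM) and Ccn2 (90.3 ± 18.03 to 33.2 ± 15.3 CPM) fell in all 6 anemic mice, the opposite of their direction in sinusoidal endothelial-like cells. Angpt1, the ligand of Tek, also fell (-0.82 ± 0.22, adjusted p = 0.0362), a call lost without any of 8 mice. Without anemia 2 and anemia 3 together, no gene of its list was called. No gene of VEGF signal transduction (19 tested), the neuropilin partners (7) or the HIF axis (6) was called by edgeR, and 0, 1 and 1 had an unadjusted p under 0.05. In fibroblast-like cells none of the 76 different genes tested from these 7 lists (1 of them in 2 lists) was called by edgeR, where 0.278% of all genes were, and 15 had an unadjusted p under 0.05.

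In the 2 classes that the choice of genes had used, the lists are given as a description, without p-values. In macrophage-like cells 8 of 14 hypoxia targets and 2 of 7 HIF axis genes rose, where 2.55% of all genes were called. Egln3 went from 1.61 ± 0.979 to 14.8 ± 6.10 CPM (log2 fold change 3.20 ± 0.38) and Bnip3, a mitophagy receptor, from 25.0 ± 3.96 to 86.2 ± 24.3 CPM, each above every control in all 6 mice. Of the other 5 lists there, 1 gene was past the threshold, the VEGF-responsive gene Igfbp3 (-1.10 ± 0.26). Its level was low, 4.63 ± 1.01 CPM in controls and 2.15 ± 0.898 CPM in anemia. Without anemia 2 and anemia 3 no VEGF-responsive gene was past the threshold in macrophage-like cells. In hepatocyte-like cells 8 of 12 hypoxia targets rose and none fell, where 47.1% of all genes were called, led by Bnip3 (2.04 ± 0.12) and Pgk1 (1.63 ± 0.11), while Vegfa in the same class was lower. Of the 7 HIF axis genes there, 3 rose, among them Egln1 and Egln3 (0.78 ± 0.11 and 0.72 ± 0.13), and Hif1a and Arnt fell (-0.63 ± 0.11 and -0.63 ± 0.15). Past the threshold in the other lists were 10 of 19 signal transduction genes (4 higher and 6 lower), 4 of 7 matrix proteins (1 higher and 3 lower), and, all lower, 2 of 3 neuropilin partners, 2 of 9 genes of other growth factor axes and 1 of 6 VEGF-responsive genes. The lists were also counted inside cluster 28 alone, which had 2442 of the 16699 cells of the class. Fewer genes were tested there, and the part of the cluster mix in the counts was not tested. Inside cluster 28 alone 4.76% of 9146 genes were called. There 6 of 12 hypoxia targets were higher, among them Bnip3 (1.24 ± 0.13) and Pgk1 (1.01 ± 0.11), but no gene of the HIF axis or of signal transduction was past the threshold, and the semaphorin receptor Plxna2, lower in the class (-0.75), was higher.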

How the data were processed

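Single-cell libraries of 12 livers (6 control, 6 anemia) were analysed from the deposited matrices of UMI counts, one per mouse. Per the file headers these were made by the authors with Cell Ranger 7.0.0, and the submitters' processing notes name Cell Ranger, Seurat and mm10. Whether intronic reads were counted is not given in the sources used here, and the labels and the study's methods name different 10x kit versions. The labels and methods give day 11 for tissue collection, and the study's account of its workflow gives day 10. Counts are raw, with no normalization. Both groups were taken from the treatment label.

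A barcode was retained if it had between 500 and 50000 UMIs, of which no more than 50% were mitochondrial. Cells were clustered (2000 variable genes without the 9 genes, 20 principal components, Leiden resolution 2, scanpy 1.11.5), without integration. Clusters were named by fixed markers, under a naming rule set after the clusters were seen. Doublets were called by simulation within each library and kept in, except that 28 clusters made largely of them stayed unnamed. UMIs were summed per mouse and class. Genes averaging 5 UMIs per mouse or more, without mitochondrial and ribosomal protein genes, were fitted with edgeR 4.0.16 (quasi-likelihood, TMM, no covariates) in each class and adjusted by Benjamini-Hochberg over all genes of that class. CPM values use all UMIs of the class without TMM factors, so a fold between CPM means can differ from the fitted fold. Where the groups of a gene did not overlap, the share of all genes of the class without overlap is not given. Standard errors were derived from the fitted log2 fold change and its F statistic. A gene of the family is named where it reaches 10 CPM in either group or is called, and of each list up to 4 called genes with the lowest p. Vegfb in monocyte-like cells is named because the study lists it. The genes, lists and tests were chosen with earlier results of these data known. The scripts were tested on simulated counts, with 100 genes changed by an absolute log2 fold change of 1. Of these, 82 were called in the right direction in sinusoidal endothelial-like, 77 in large-vessel endothelial-like and 56 in stellate-like cells. With a change of 2 the numbers were 96, 93 and 88. A gene not called, above all in stellate-like cells, may therefore still have changed. Alternatives were DESeq2 1.42.0, the study's joint voom model (limma 3.58.1), other filters and scalings, and leaving out each mouse. P-values measure the spread between mice. Positions are from GENCODE M21 (GRCm38), and promoter windows from RefSeq.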

Additional observations from a re-analysis of the deposited data

Results flagged for a closer look

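With 4 to 10 samples in a group, a highest or lowest mouse was singled out by Dixon's criterion, which chance meets in about 1 group in 20. It was met 15 times in 176 groups of mice. Among these were Vegfc in sinusoidal endothelial-like cells of anemia 5 (108 CPM) and Nrp1 in macrophage-like cells of control 5 (90.7 CPM). In anemia 2, Vegfa in NK-like cells was 48.9 CPM and Vegfb in large-vessel endothelial-like cells 41.7 CPM, both the highest of the group, and Kdr in large-vessel endothelial-like cells was the lowest, 445.0 CPM. Kdr in the same class was highest of the controls in control 6 (687 CPM). In anemia 3, Vegfc in fibroblast-like cells was 244.0 CPM and Flt4 in cholangiocyte-like cells 31.7 CPM, the latter on 6 UMIs. In anemia 5, Vegfc in cholangiocyte-like cells was 28.2 CPM, on 15 UMIs, and Flt1 in mesothelial-like cells 173 CPM. Among controls, Vegfa in basophil-like cells was 55.1 CPM in control 5, on 8 UMIs, Vegfb in B-like cells 20.0 CPM in control 3, and Flt1 in cholangiocyte-like cells 135 CPM in control 6. Flt1 in mesothelial-like cells was lowest in control 3 (17.5 CPM), and Vegfb in all cells lowest in control 2 (21.1 CPM).

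Vegfa moved in opposite directions between classes. The anemic mean minus the control mean was 31.1 CPM in macrophage-like and 77.5 CPM in stellate-like cells, and -30.5 CPM in hepatocyte-like cells, with every anemic mouse beyond every control in each. The macrophage-like and hepatocyte-like values are those on which the genes were selected, so their opposite directions are a description and no separate result. The difference between these classes was not tested.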

How the results depend on the processing

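The number of gene and class pairs called, 4, became 7 without TMM factors, 9 in the joint voom model and 8 with the replicate block, and stayed between 3 and 5 with any one mouse left out. In all cells the number of genes past the threshold includes Vegfa, whose UMIs chose the genes, and so supports nothing. It was 1, 3 without anemia 2 and anemia 3, and 1 to 2 with any one mouse left out. The shared replicate numbers 1 to 6 did not pair the mice: correlations of the deviations of same-numbered mice ran from -0.184 to 0.298, and 1 of 6 mice matched its own number best. With the replicate block, Flt4 in sinusoidal endothelial-like cells was not called (-0.24, adjusted p = 0.0719 by edgeR), while Vegfc in large-vessel endothelial-like cells was (0.55, adjusted p = 0.0173). Flt1 in stellate-like cells changed sign at the coarser clustering (0.38), where 63.4% of the cells of the class were called doublets. The difference of Vegfa means in hepatocyte-like cells, -30.5 CPM, was -11.1 CPM with cells of at most 10% mitochondrial UMIs, -10.4 CPM in cluster 28 alone and -6.27 CPM at the control mix, and -31.5 to -28.9 CPM with any one mouse left out. In macrophage-like cells it was 28.1 to 33.96 CPM with one mouse left out and 28.9 to 36.95 CPM otherwise, against 31.1 CPM. Vegfa and Vegfc in sinusoidal endothelial-like and Vegfa in stellate-like cells kept their calls under every alternative run. The causes of these changes were not tested. Stellate-like cells of anemia 3 gave 21346 UMIs, which limits every value there.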
